A study of Homo sapiens with 3 samples.

Results

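The 10 genes described here encode translation factors: 6 elongation factor genes (EEF1A1, EEF1A2, EEF1B2, EEF1D, EEF1G and EEF2), 3 classical initiation factor genes (EIF2S1, EIF2S2 and EIF4E) and EIF5A, which was first named as an initiation factor and acts in elongation. They were chosen by name, and all 10 had a row among the 26485 gene names of the deposited count tables. The tables came from RNA sequencing of HEK293, a human embryonic kidney cell line immortalised with sheared adenovirus DNA and grown here in serum-containing medium, with no treatment named. The 3 libraries formed 1 group of 3 replicates (n = 3), made from total RNA after ribosomal RNA depletion with a strand-preserving kit, although their titles call them mRNA sequencing. Nothing in the labels says that the replicates came from separate cultures, so spreads and p-values describe these samples and may be technical.

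In elongation, eEF1A carries each aminoacyl-tRNA to the ribosome as a complex with GTP. The eEF1B complex, built from the products of EEF1B2, EEF1D and EEF1G, then exchanges the spent GDP on eEF1A for GTP, and eEF2 moves the ribosome along by a codon. In initiation, eIF2 brings the initiator tRNA and is held back when stress kinases phosphorylate its alpha subunit, while eIF4E binds the cap of the mRNA. In growing cells EEF1A1 and EEF2 are usually among the most abundant mRNAs, and EEF1A2 is known mainly from muscle, heart and neurons.

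Many of these genes have processed pseudogenes, copies of the mRNA inserted elsewhere in the genome, whose sequence can match that of the parent gene. GENCODE release 29 on GRCh38 names 39 pseudogenes of EEF1A1, 8 each of EEF1B2, EEF1D and EEF1G, 5 of EIF4E, 4 of EIF2S2 and 3 of EIF5A. No pseudogene is named there for EEF1A2, EEF2 or EIF2S1. The first 90 coding bases of EEF1A1, of its pseudogene EEF1A1P5 and of its tissue-restricted relative EEF1A2 are shown because they set a near-identical copy beside a diverged paralogue; capitals mark bases that differ from EEF1A1, and all sequences are reference transcripts of GENCODE release 29.
EEF1A1: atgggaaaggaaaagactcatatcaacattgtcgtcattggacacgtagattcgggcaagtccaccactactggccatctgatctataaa
EEF1A1P5: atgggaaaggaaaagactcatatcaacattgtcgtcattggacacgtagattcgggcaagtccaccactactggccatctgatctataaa
EEF1A2: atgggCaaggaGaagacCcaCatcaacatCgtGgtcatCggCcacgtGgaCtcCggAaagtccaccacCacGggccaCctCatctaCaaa

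EEF1A1 lies on the minus strand of chromosome 6 from 73515750 to 73523797 (GRCh38), EEF1A1P5 on chromosome 9 from 133019486 to 133020874 and EEF1A2 on chromosome 20 from 63488012 to 63499322. Over the 1386 coding bases, EEF1A1P5 was identical to EEF1A1 at 1382 positions (99.7%), with an unbroken shared run of 425 bases. EEF1A2 was identical at 1083 of 1386 aligned positions (78.1%) and shared no run longer than 20 bases, with 17 differences in the 90 bases shown. EEF1A1 was thus far closer to its pseudogene than to its functional paralogue. EIF5A showed the same contrast between a retrocopy, EIF5AL1 on chromosome 10, and a diverged paralogue, EIF5A2 on chromosome 3, with capitals marking differences from EIF5A.
EIF5A: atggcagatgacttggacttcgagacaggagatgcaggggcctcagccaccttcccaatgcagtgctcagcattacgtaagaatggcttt
EIF5AL1: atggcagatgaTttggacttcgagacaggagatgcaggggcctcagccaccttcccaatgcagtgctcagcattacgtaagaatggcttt
EIF5A2: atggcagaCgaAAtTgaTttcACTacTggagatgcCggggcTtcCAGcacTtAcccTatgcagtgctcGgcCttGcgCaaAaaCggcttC

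EIF5AL1 was identical to EIF5A at 457 of 462 coding bases (98.9%), against 328 of 459 aligned bases (71.5%) for EIF5A2. To give each factor a value, its longest annotated coding sequence was read in overlapping words of 50 bases, and a word was called shared when a transcript of another locus held it on either strand. Shared words made up 94.2% of the coding words of EEF1A1, 74.9% of those of EEF1B2, 73.4% of EEF1G, 64.0% of EIF4E, 61.9% of EIF2S2 and 44.4% of EIF5A. EEF1D had 5.14%, and EEF1A2, EEF2 and EIF2S1 had none. With untranslated exons and all transcript forms included, the shares fell to 20.4% for EEF1A1, 21.6% for EEF1B2, 34.5% for EEF1G, 22.6% for EIF2S2, 15.3% for EIF5A and 4.59% for EIF4E. No source used here gives the read length, so the word length is a choice, and the counter in its usual mode sets aside a read that aligns to more than 1 place.

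**Figure D1:**
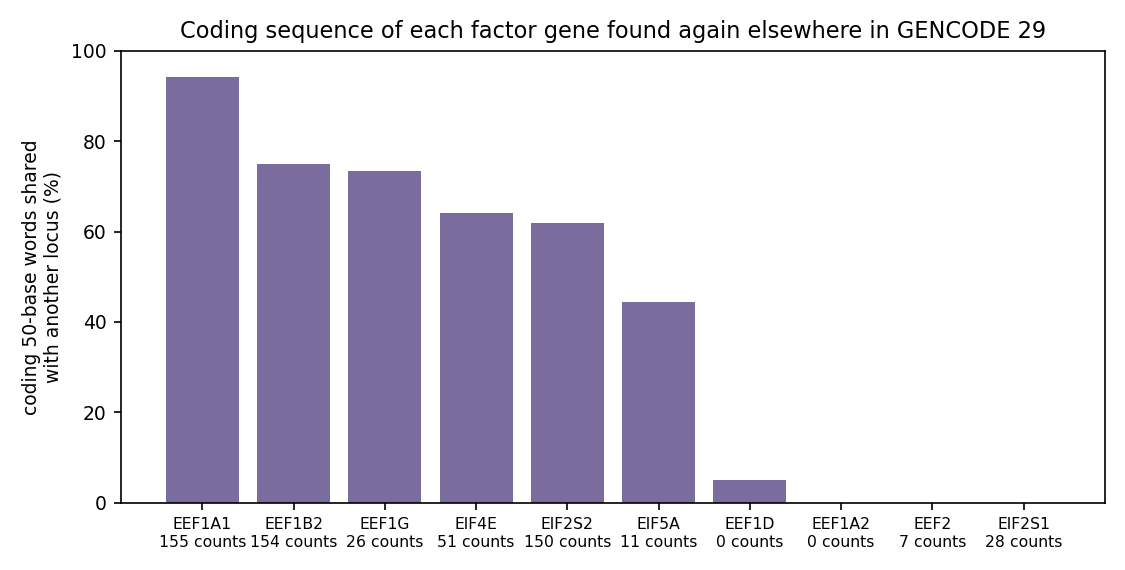
Share of coding 50-base words (percent, y axis) of each factor gene that also occurs in a GENCODE release 29 transcript of another locus, with the gene's total count over 3 libraries under its name. EEF1A1 and EEF1B2 have the highest shares and the highest counts, while EEF1A2, EEF2 and EIF2S1 have a share of 0 and at most 28 counts. EEF1G, with a share of 73.4%, has 26 counts, and EIF5A, with 44.4%, has 11.

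Whether reads were set aside because of shared words was not tested, and counts varied among factors with high shares and among those with low shares. EEF1A1, with 94.2% of its coding words shared, collected 155 counts in all, and EEF1B2 and EIF2S2 collected 154 and 150. EIF4E (64.0% shared) collected 51, EEF1G (73.4%) 26 and EIF5A (44.4%) 11. EEF2, with no shared word, collected 7, EIF2S1 collected 28, and EEF1A2 and EEF1D collected none.

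The 10 factors together took 216, 192 and 174 counts in replicates 1, 2 and 3, which is 0.0508% ± 0.0103 (SD, n = 3) of gene-assigned counts. Wilson 95% intervals of this share were 0.0459% to 0.0599%, 0.0345% to 0.0458% and 0.0519% to 0.0698% in the same order. Per TMM-adjusted library size, the scale used for single genes below, the 10 factors summed to 494, 443 and 573 CPM (counts per 1000000), with exact 95% Poisson intervals of 430 to 564, 382 to 510 and 491 to 665 CPM. Replicate 2 was lowest on both scales, and on the second its interval overlapped those of the others. These intervals, like all others here, cover counting error alone. Gene-assigned totals were 289241 to 483114 per library, only 1.76% to 2.48% of all records, and a single count was worth 2.29 to 3.30 CPM. Names with an exon over an opposite-strand exon made up 31.6% of the 23899 names matched to GENCODE and held 72.7% to 76.3% of gene-assigned counts per library (66.8% to 68.8% without TSIX). All levels and ratios here are of counts under gene names, and whether the counted reads came from the named gene's strand was not tested. Of the HEK293 markers looked up, 9 of 10 had a count (summed level 254 to 299 CPM), led by LIN28A, KRT8 and NEFL, but PAX2 had none and KRT18, NEFM and PAX8 had 1 count each. Of 7 markers of blood, endothelium, liver and muscle, PECAM1 alone had counts (0 to 11.4 CPM).

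Counts in all 3 libraries were found for 8 factors, against 7738 of the 26485 names. The other 2 factors had none, against 45.3% of all gene names without a count. At least 10 counts in every library, the minimum for testing, were reached by 4 factors (EEF1A1, EEF1B2, EIF2S2 and EIF4E), against 9.68% of all names. By mean CPM, EEF1A1 stood at place 1037 of the 26485 names, EIF2S2 at 1115 and EEF1B2 at 1121. EIF4E followed at place 2446, EIF2S1 at 3582, EEF1G at 3895, EIF5A at 6623 and EEF2 at 7846. Per kilobase of exon, over 13183 names with a count and a known exon length, EEF1B2 stood at place 540, EIF2S2 at 727, EEF1A1 at 1322 and EEF2 at 6828.

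EEF1A1, the carrier of aminoacyl-tRNA in most cells, received 68, 24 and 63 counts in replicates 1, 2 and 3, or 155, 55.3 and 208 CPM (139 ± 77.4 CPM, SD, n = 3). Replicate 2 was low, and its exact 95% Poisson interval (35.4 to 82.3 CPM) did not reach those of replicate 1 (121 to 197 CPM) or replicate 3 (160 to 266 CPM). EEF1A2 received 0 counts in every library, for which the floor of 3 counts (about the one-sided 95% limit of a count of 0) is 6.86, 6.92 and 9.89 CPM in replicates 1, 2 and 3 and the two-sided exact 95% upper limit is 8.43 to 12.2 CPM. Per kilobase of exon, the measured level of EEF1A1, set against that floor, was at least 18.7-fold higher than EEF1A2 in replicate 1, at least 6.60-fold in replicate 2 and at least 17.3-fold in replicate 3, with the floor taken in each library and the counting error of EEF1A1 not included.

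Counts under the gene names of the exchange complex subunits were uneven. EEF1B2, the catalytic alpha subunit gene, received 54, 73 and 27 counts, or 123, 168 and 89.0 CPM (127 ± 39.8 CPM, SD, n = 3). EEF1G, the gamma subunit gene, received 14, 4 and 8 counts, or 32.0, 9.22 and 26.4 CPM (22.5 ± 11.9 CPM, SD, n = 3). EEF1D, the delta subunit gene, received no count in any library. EEF1B2 was highest in replicate 2, where EEF1G was lowest.

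EEF1B2 exceeded EEF1G per kilobase in 3 of 3 libraries, with a log2 ratio of 3.10 ± 1.32 (SD, n = 3) on a scale with 0.5 CPM added to each gene. Counted over the 3 libraries together, the ratio per kilobase was 8.40 (exact 95% interval 5.52 to 13.3). Replicate 2 raised both values: without it the mean log2 ratio was 2.34 and the summed ratio 5.22. EEF1D was set against the same floor of 3 counts. Per kilobase of all annotated exons merged, the measured level of EEF1B2 was at least 88.3-fold, 119-fold and 44.1-fold higher in replicates 1, 2 and 3, again without the counting error of EEF1B2. These bounds hold for that length alone. With 0.5 CPM added, the mean log2 ratio of EEF1B2 to EEF1D was 10.2 with it and 9.71 per kilobase of the longest transcript. For EEF1G, 2714 of its 2716 exon bases also belong to AP002990.1, a gene annotated on the same strand. AP002990.1 had no row under that name here. The count of EEF1G is uncertain wherever a counter holds both genes. EEF1B2 exons contain the small nucleolar RNA gene SNORA41 (132 bp), whose own row had no count. They also share 182 bp with RF02271, another RNA gene on the same strand, which had no row under that name.

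EEF2, the translocase gene, received 2, 1 and 4 counts, or 4.57, 2.31 and 13.2 CPM (6.69 ± 5.74 CPM, SD, n = 3), with a mean of 3.44 CPM without replicate 3. All 3 exact 95% intervals overlapped, and the widest, in replicate 3, ran from 3.59 to 33.8 CPM. Per kilobase EEF1A1 exceeded EEF2 in 3 of 3 libraries, by a log2 ratio of 3.83 ± 0.51 (SD, n = 3), and the ratio over summed counts was 15.0 (exact 95% interval 7.10 to 37.9). EIF5A, whose protein carries the modified residue hypusine and helps ribosomes through difficult stretches, received 6, 2 and 3 counts, or 13.7, 4.61 and 9.89 CPM (9.40 ± 4.57 CPM, SD, n = 3). Its paralogue EIF5A2 received 6, 6 and 2 counts, and the EIF5A to EIF5A2 ratio per kilobase of 1.56 had an exact 95% interval from 0.641 to 3.70, which includes equality. The retrocopy EIF5AL1 had a row with no count.

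**Figure D2:**
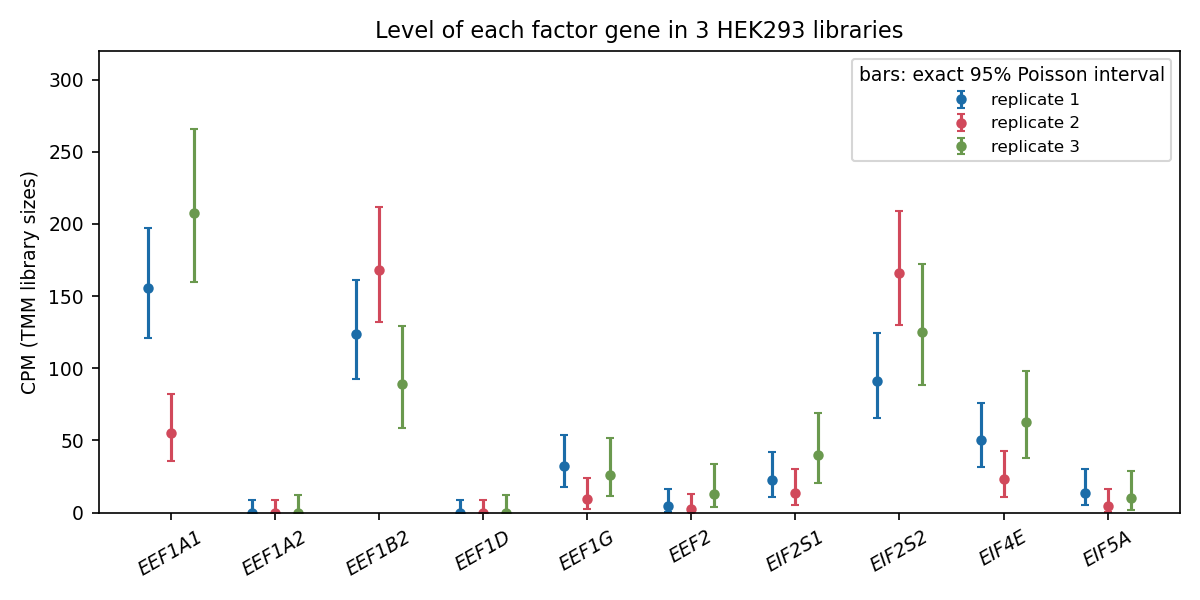
CPM (y axis, TMM library sizes) of the 10 factor genes in replicates 1, 2 and 3 (points) with exact 95% Poisson intervals (bars), which at 0 counts reach the two-sided upper limits of 8.43 to 12.2 CPM. EEF1A1, EEF1B2 and EIF2S2 had mean levels of 127 to 139 CPM, and EEF1A2 and EEF1D lay at 0 in every library.

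Of the eIF2 subunits, the beta subunit gene EIF2S2 received 40, 72 and 38 counts, or 91.4, 166 and 125 CPM (128 ± 37.3 CPM, SD, n = 3). The alpha subunit gene EIF2S1, the target of stress kinases, received 10, 6 and 12 counts, or 22.9, 13.8 and 39.6 CPM (25.4 ± 13.0 CPM, SD, n = 3). EIF2S1 lay below EIF2S2 in 3 of 3 libraries per kilobase, with a log2 ratio of EIF2S1 to EIF2S2 of -3.48 ± 1.01 (SD, n = 3). Over summed counts the ratio of EIF2S1 to EIF2S2 per kilobase was 0.0877 (exact 95% interval 0.0564 to 0.132), and 0.133 without replicate 2. EIF2S3, the gamma subunit gene, received 10, 2 and 3 counts, so the beta subunit gene was the highest of the 3 in counts in every library.

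The cap-binding factor gene EIF4E received 22, 10 and 19 counts, or 50.3, 23.1 and 62.6 CPM (45.3 ± 20.2 CPM, SD, n = 3). Its relative EIF4E2 received 1, 0 and 0 counts. Over summed counts EIF4E stood 26.0-fold above EIF4E2 per kilobase, with a wide exact 95% interval from 4.46 to 1048 because EIF4E2 rests on 1 count, in replicate 1. Without replicate 3 the ratio was 16.3, and without replicate 1 EIF4E2 had no count. EIF4E3, another cap-binding relative, received 62, 14 and 25 counts, more than EIF4E in every library.

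Per kilobase of merged exon, which sets genes of different length side by side, EEF1B2 had 66.3 ± 20.8, EIF2S2 48.0 ± 14.1 and EEF1A1 23.4 ± 13.0 CPM per kilobase (SD, n = 3 each). EEF1G followed with 8.30 ± 4.37, EIF2S1 with 4.50 ± 2.31, EIF5A with 3.34 ± 1.62, EIF4E with 3.22 ± 1.44 and EEF2 with 1.66 ± 1.43 CPM per kilobase (SD, n = 3 each). The ranges of every pair of neighbours in this order overlapped, so no neighbours were separated beyond their spread. Within libraries the order held in 3 of 3 for EIF2S2 over EEF1A1, EEF1A1 over EEF1G, EEF1G over EIF2S1 and EIF4E over EEF2, in 2 of 3 for EEF1B2 over EIF2S2 and EIF2S1 over EIF5A, and in 1 of 3 for EIF5A over EIF4E. With 3 libraries the smallest p of a two-sided exact sign-flip permutation test is 0.25, and the 8 pairs compared carry no call. The order depended in part on the length used: per kilobase of the longest transcript, EIF5A (6.22) stood above EIF2S1 (5.67), and EEF1B2 reached 116 CPM per kilobase. With the same CPM divided by the number of 50-base words found at no other locus, a scale chosen after seeing the data, the levels of EEF1B2, EIF2S2, EEF1A1 and EEF1G were 73.9, 63.2, 27.8 and 12.5 CPM per kilobase, in the same order.

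**Figure D3:**
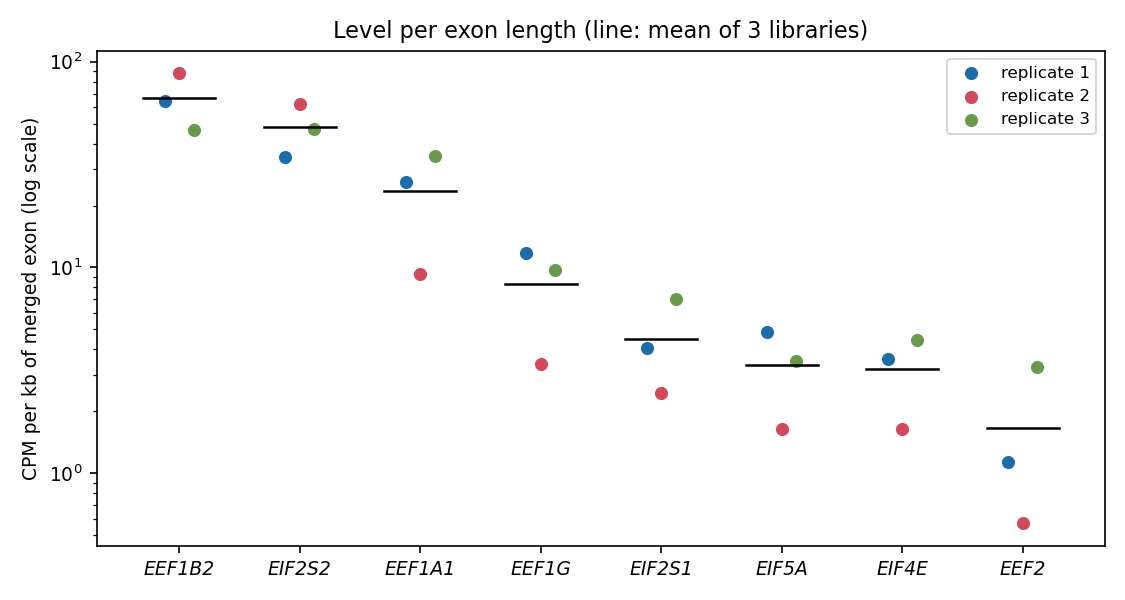
CPM per kilobase of merged exon (log y axis) of the 8 factor genes with counts, in order of their mean (line), with points for replicates 1, 2 and 3. Means run from 66.3 for EEF1B2 to 1.66 for EEF2, and neighbouring genes overlap.

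Replicate 2 stood at an end for each of the 8 factors with counts. It was lowest for EEF1A1, EEF1G, EEF2, EIF2S1, EIF4E and EIF5A and highest for EEF1B2 and EIF2S2. Among the 7738 names counted in all libraries, 35.1% were lowest and 34.1% highest in replicate 2. The 6 and 2 places were the same with DESeq2 size factors, with total counts and with TSIX left out, although total counts moved the median log2 ratio of replicate 2 to the mean of the others from 0.00 to -0.23 over all tested genes.

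**Figure D4:**
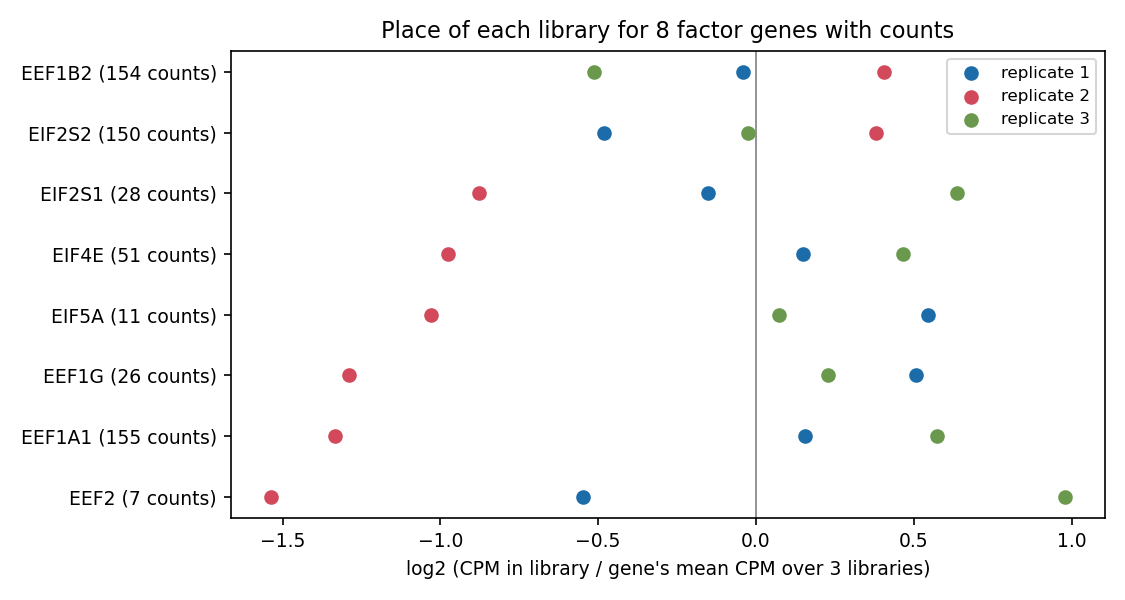
Log2 ratio of the CPM in each library to the gene's mean CPM (x axis) for the 8 factor genes with counts, whose totals stand beside their names. Replicate 2 lies leftmost in 6 genes and rightmost in EEF1B2 and EIF2S2.

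All 4 tested factors differed between libraries beyond counting noise (edgeR's Poisson fit with Benjamini-Hochberg adjustment over 2564 genes), where 45.8% of all tested genes did. EEF1A1 passed with an adjusted p of 8.11e-08, and replicate 2 stood at a log2 ratio of -1.71 to the mean of replicates 1 and 3. EIF4E passed narrowly with an adjusted p of 0.0464 and a log2 ratio of -1.29. For this direction the background was 17.0% of tested genes, those that passed with replicate 2 lowest. EIF2S2 passed with an adjusted p of 0.0221 and a log2 ratio of 0.62, and EEF1B2 with 0.0273 and 0.66, in the direction in which 22.6% of tested genes passed with replicate 2 highest. The other 4 factors with counts were too low to test.

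With a negative binomial null at the common dispersion of these libraries, edgeR called 0 of the 4, with adjusted p from 0.677 to 0.996 and 1 unadjusted p under 0.05. EIF4E also missed the threshold in edgeR's fit with DESeq2 size factors (0.0613), the Pearson statistic (0.0582) and no count filter (0.0787), and EEF1B2 with no count filter (0.0534). The calls rested on replicate 2: without it 0 of 5 tested factors passed in edgeR's fit, and 0 had an unadjusted p under 0.05, with adjusted p of 0.311 for EEF1A1, 0.415 for EEF1B2, 0.426 for EIF2S2 and 0.729 for EIF4E. Leaving out another library ended the calls of EEF1B2 (adjusted p = 0.0921 without replicate 3), EIF4E (0.124 without replicate 3) and EIF2S2 (0.304 without replicate 1), and total counts ended those of EEF1B2 (0.145) and EIF2S2 (0.141), all in edgeR's fit.

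Opposite-strand exon overlap was short for the factors with counts. Exons of 6 of the 10 shared at least 1 base with an exon on the other strand, against 31.6% of the 23899 names matched to GENCODE. The overlap was 180 bp for EEF1A1 (with AL121972.1), 19 bp for EEF1B2 (with NDUFS1), 269 bp for EIF2S1 (with ATP6V1D), 62 bp for EIF4E (with AC019131.1) and 241 bp for EIF5A (with GPS2). EEF1D, without a count, had the longest, 2934 bp with AC067930.6, besides 297 bp with AC067930.2 and 261 bp with TIGD5. The partners with a row had few counts: NDUFS1 0, 0 and 4, ATP6V1D 2, 0 and 2, GPS2 2, 0 and 0, and TIGD5 none. EEF1A2, EEF1G and EEF2 had no gene on the opposite strand, and EIF2S2 overlaps RALY (3, 18 and 7 counts) over 20011 bp with no shared exon base. No source used here states the counter's strand option, so these values do not show which strand was read.

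The start sites were compared because several elongation factor mRNAs are known to begin with a terminal oligopyrimidine (TOP) tract, a C followed by pyrimidines through which mTOR controls their translation. RefSeq (GRCh38.p14) gave start windows for 7 of the 10 factors, with none for EEF1A2, EEF1D and EIF2S2. Windows of 15 bases on each side of the annotated start are shown 5′ to 3′ on the gene's strand, with the pyrimidine run that begins with C at the start in capitals.
EEF1A1, chr6:73521018-73521047, minus strand: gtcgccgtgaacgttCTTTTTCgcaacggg
EEF1B2, chr2:206159880-206159909, plus strand: ccggtctcttcgggtCCTTTTTCCTCTCTT
EEF2, chr19:3985449-3985478, minus strand: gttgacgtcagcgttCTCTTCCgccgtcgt
EEF1G, chr11:62573877-62573906, minus strand: tctcccgggcggcttactttgcggcagcgc
EIF2S1, chr14:67360313-67360342, plus strand: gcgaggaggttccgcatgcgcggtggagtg
EIF4E, chr4:98929119-98929148, minus strand: ccttctggagcggttgtgcgatcagatcga

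A C at the start followed by at least 4 more C or T, on the gene's strand, was present for EEF1A1 (a run of 7), EEF2 (7) and 1 of the 2 starts of EEF1B2 (16, of which 15 are shown), against 4.07% of 35116 start windows. EEF1G, EIF2S1, EIF4E and the 6 starts of EIF5A had no such run at the annotated base. The 3 factors with the run had counts at both ends of the set, 155 and 154 for EEF1A1 and EEF1B2 and 7 for EEF2.

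Beyond these 10, 116 other genes of the translation machinery were listed and 113 had a row. Of these, 98 had a count and 15 (13.3%) had none, among them EIF1 and EIF4A1, which are usually abundant, EIF3C, and DOHH, the second enzyme of hypusine formation on eIF5A. With all transcript forms included, words shared with another locus made up 45.5% for EIF3C and 97.2% for EIF3CL, which also had no count. For EIF1, EIF4A1 and DOHH they made up 2.55%, 8.04% and 0%. The median level of the 113 genes was 8.31 CPM, beside 24.0 CPM for the 10 factors and 1.10 CPM over all names. Of the 25 with at least 10 counts in every library, 10 (40%) differed between libraries in edgeR's fit (adjusted p under 0.05), beside 45.8% of all tested genes, with replicate 2 highest in 4, lowest in 4 and between in 2; 4 of 27 passed without replicate 2. Their median coefficient of variation beyond counting noise was 0.179, beside 0.327 for the 4 tested factors and 0.200 over all tested genes.

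Among the other genes of ternary complex and subunit joining, 1 of 5 tested passed. EIF2A, an alternative carrier of initiator tRNA, received 49, 113 and 29 counts and passed (adjusted p = 4.17e-08, edgeR) with replicate 2 highest. MCTS1, which acts in reinitiation, had 129 ± 15.5 CPM, and EIF2B1, a subunit of the eIF2 exchange factor, had 74.7 ± 12.6 CPM (SD, n = 3 each); neither passed. Of 14 eIF3 genes 12 had a count and 1 could be tested, EIF3E, with 12, 25 and 24 counts (adjusted p = 0.0176, edgeR); EIF3J had 52.0 ± 46.5 CPM and EIF3A 26.9 ± 15.8 CPM (SD, n = 3 each). Of 15 genes around eIF4 and the mRNA ends 14 had a count. EIF4E3 passed with replicate 2 lowest (85.5 ± 54.8 CPM, adjusted p = 9.45e-07, edgeR), while EIF4ENIF1, the eIF4E transporter gene, had 86.9 ± 15.4 CPM and EIF4B, a helicase cofactor, 36.9 ± 4.02 CPM (SD, n = 3 each).

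The eIF2 alpha kinase EIF2AK1, the heme-regulated inhibitor, received 552, 392 and 435 counts (1200 ± 270 CPM, SD, n = 3) and passed with replicate 2 lowest (adjusted p = 5.36e-10, edgeR). Per kilobase it had 216 ± 48.7 CPM (SD, n = 3), against the 4.50 of its substrate EIF2S1. Its exons share 532 bp with AIMP2 on the opposite strand, which received 31, 35 and 18 counts. PPP1R15B, a phosphatase subunit that reverses this phosphorylation, received 103, 172 and 83 counts and passed with replicate 2 highest (adjusted p = 3.18e-04, edgeR). EIF2AK4, the amino acid-sensing kinase, had 24.2 ± 10.9 CPM (SD, n = 3).

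Enzymes that modify the factors had 9 of 13 members with a count. DNAJC24, which acts in diphthamide formation on eEF2, had 389 ± 48.4 CPM and EEF2KMT, an eEF2 lysine methyltransferase, had 274 ± 29.2 CPM (SD, n = 3 each), or 51.2 and 87.6 CPM per kilobase against the 1.66 of EEF2; EEF2KMT exons share 915 bp with ALG1 on the opposite strand (111, 98 and 59 counts). DHPS, the first enzyme of hypusine formation, received 41, 20 and 31 counts and passed with replicate 2 lowest (adjusted p = 0.0182, edgeR), and its exons share 116 bp with WDR83 on the opposite strand (482, 312 and 329 counts). The remaining elongation list had 3 of 5 members with a count: HBS1L, a ribosome rescue GTPase related to eEF1A, with 3285, 2386 and 2734 counts (adjusted p = 2.59e-68, edgeR), EIF5A2, and EEFSEC, the selenocysteine elongation factor, with 1 count. Among termination and rescue genes ABCE1, the ribosome recycling ATPase, received 78, 82 and 32 counts and passed (adjusted p = 0.0235, edgeR). On the opposite strand its exons share 469 bp with ANAPC10 (270, 242 and 234 counts), 276 bp with OTUD4 (39, 61 and 12 counts) and 243 bp with AC098588.1. Of the release factor genes, GSPT1 (230 ± 21.2 CPM) did not pass and ETF1 (25.1 ± 11.3 CPM) could not be tested (SD, n = 3 each).

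Cytosolic aminoacyl-tRNA synthetase genes, which charge the tRNAs that eEF1A carries, had 20 of 22 members with a count, and none of the 4 tested passed in edgeR's fit. YARS had 169 ± 20.8 CPM, AIMP1 141 ± 31.4 CPM and HARS 140 ± 16.1 CPM (SD, n = 3 each). All 9 mitochondrial translation factor genes had a count. GFM2, a mitochondrial ribosome recycling factor, received 524, 580 and 516 counts (adjusted p = 8.45e-07, edgeR) and MTRF1L, a mitochondrial release factor, 471, 681 and 402 (adjusted p = 2.52e-08, edgeR), while MTIF3, a mitochondrial initiation factor, had 330 ± 35.2 CPM (SD, n = 3) and did not pass. Per kilobase GFM2, MTRF1L and MTIF3 had means of 336, 310 and 206 CPM, each above the 66.3 of EEF1B2, the highest of the 10 factors. HBS1L stood higher, at 661 CPM per kilobase, and EIF2AK1 had 216. Of the 111 listed genes matched to the annotation, 56 had an exon over an opposite-strand exon, against 31.6% of all names matched to GENCODE. GFM2, MTRF1L, MTIF3 and EIF2AK1 were among them, but HBS1L, DNAJC24 and PPP1R15B were not. The overlaps printed above are not a full list. EEFSEC, EIF2A, EIF2B1, EIF3A, EIF3J, EIF4B, EIF4E2, EIF4E3, EIF4ENIF1, YARS, AIMP1 and HARS also had one.

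**Figure D5:**
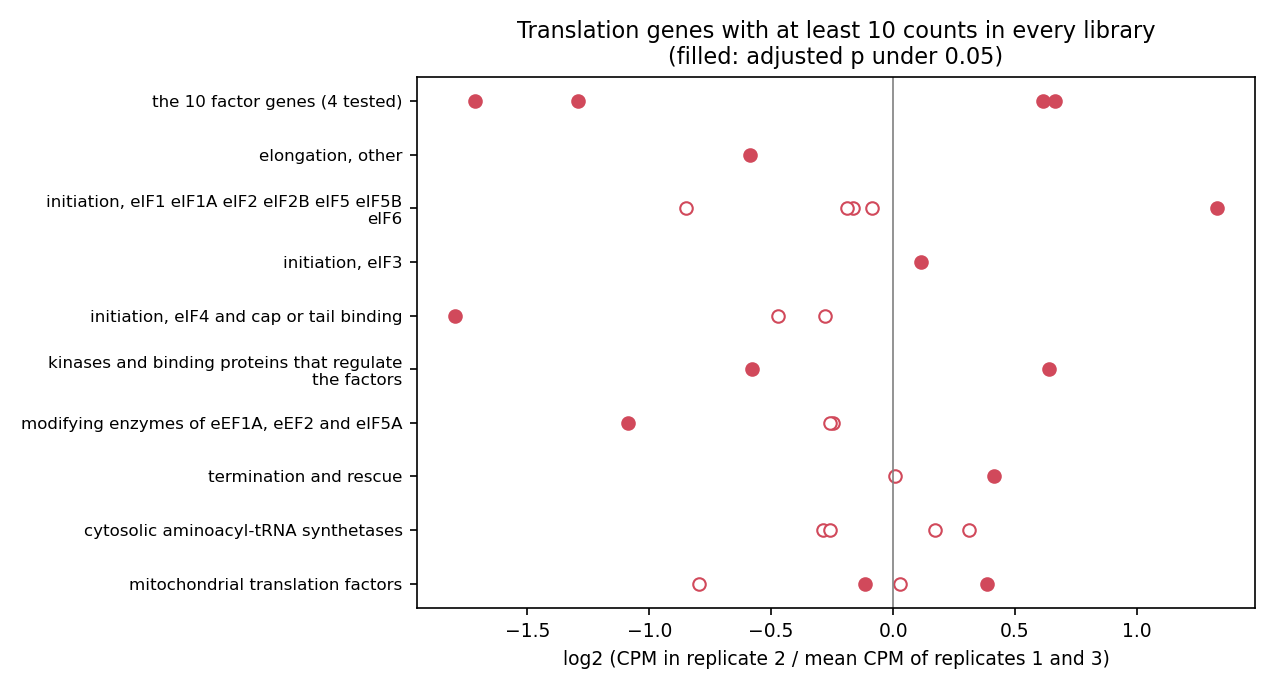
Log2 ratio of CPM in replicate 2 to the mean CPM of replicates 1 and 3 (x axis) for the 4 tested factor genes and the 25 tested genes of 9 translation lists (rows); filled points passed edgeR's Poisson fit at an adjusted p under 0.05. The factor genes lie at -1.71, -1.29, 0.62 and 0.66, and all 4 are filled.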

How the data were processed

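The deposited tables held raw whole-number read counts per gene symbol, 1 table for each of 3 HEK293 libraries, plus 5 summary lines, which entered neither the library sizes nor the tests. These lines held 90.6% to 91.5% of records as no feature and 6.00% to 7.51% as not uniquely aligned. Per the submitters' processing notes, Trimmomatic, TopHat2 (given as 2.2.5) and HTSeq 0.11.2 were used with hg38. No source used here gives the annotation, strand option, read length or filters.

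CPM used TMM library sizes (edgeR 4.0.16, R 4.3.3). A minimum of 10 counts per library was required of a gene to enter edgeR's Poisson fit (dispersion 0, intercept alone): deviance against chi-square, Benjamini-Hochberg adjustment over all tested genes, threshold 0.05. On simulated Poisson counts with replicate 2 changed, 40.8% of 49 genes at 1.5-fold, 84% of 50 at 2-fold and 100% of 49 at 4-fold were called, and 0.216% of 2783 unchanged genes. Changed genes were drawn above a minimum expected count. The simulation held no spread between libraries beyond counting noise, unlike these data (biological coefficient of variation 0.276). The 0.216% is therefore not a false-call rate for these libraries.

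Exons, opposite-strand overlaps (any exonic base), transcript words of 50 bases and coding sequences came from GENCODE release 29 (GRCh38), a stand-in for the annotation used to count, in which all 10 factors were matched by name. Identities came from global alignments (Biopython 1.88). Intervals were computed with scipy 1.17.1 in Python 3.11.15.

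Named were the 10 factors, their opposite-strand partners, paralogues and pseudogenes with a count, and from 9 translation lists the 3 highest members and those that passed; EEF1DP3, an EEF1D pseudogene with 1 count, was the sole named pseudogene row with a count. Genes without a count were named after their values were seen. Members and lists were chosen with earlier results of these data known. DESeq2 1.42.0 size factors and other settings were tried as alternatives.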

Additional observations from a re-analysis of the deposited data

How the results depend on the processing

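Of 1175 genes that differed between libraries, 4 were among the 10 factors and 10 among the other translation genes. With no count filter the numbers were 2914, 2 and 18. With a negative binomial null at the common dispersion (biological coefficient of variation 0.276), edgeR called 0, 0 and 0, with 136, 1 and 2 at an unadjusted p under 0.05. That null takes the spread among these libraries as its own noise. Total counts gave 2 factors. Leaving out each replicate gave 263 to 1093 genes, 0 to 3 factors and 4 to 10 translation genes, lowest without replicate 2 in each case. For EEF1A1 the adjusted p ranged from 3.59e-10 to 0.677 over the alternatives, and it missed the threshold under the negative binomial null and without replicate 2. All 48 alternative values of the members' mean CPM and all 36 of the mean log2 pair ratios stayed within 1 SD of those reported. Leaving out 1 of 3 libraries cannot move a mean by 1 SD, so the leave-one-out values among these do not test stability. The values from other scalings, TSIX left out, other lengths or another added CPM could have left this range and did not. Some summed ratios per kilobase left their exact intervals when a replicate was left out. Without replicate 2 these were EEF1B2 to EEF1G (5.22, against 5.52 to 13.3) and EIF2S1 to EIF2S2 (0.133, against 0.0564 to 0.132). EEF1A1 to EEF1B2 left its interval (0.258 to 0.408) without replicate 2 (0.521) and without replicate 3 (0.233). The other summed ratios that could be formed stayed inside. Requiring 100 exonic bases, or a protein-coding partner, left 4 of 6 factors with opposite-strand overlap. The alternative that needed a genome sequence was not run, and words shared between GENCODE transcripts took its place. No paired analysis was possible because all libraries formed 1 group. At this depth a factor without a count could still lie at up to the floor of 3 counts, 6.86 to 9.89 CPM, or by the two-sided exact limit at up to 8.43 to 12.2 CPM.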
